A study of Mus musculus with 15 samples.

Results

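The comparison described here set recruited nerve-associated macrophages against interstitial macrophages of the punched mouse ear, 10 days after injury. Its members are the 6 libraries whose labels name these populations, out of 15 libraries in the series, and every gene of the deposited table. The 3 libraries called recsNAM hold macrophages sorted as GFP+/Tomato- from punched left ears, and the 3 libraries called injIM hold macrophages sorted as GFP-/Tomato- from punched left ears. Both came from CX3CR1-creERT2/gfp R26-tdT/+ mice that received tamoxifen 3 weeks before the punch. Values of 2 further groups are shown beside them where useful: injsNAM, the GFP+/Tomato+ resident nerve-associated macrophages of punched ears, and IM, the GFP-/Tomato- interstitial macrophages of unpunched right ears (3 libraries each). All groups carry the same alleles and all received tamoxifen. Every sort took CD11b+ CD64+ Lin- cells.

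The CX3CR1-creERT2/gfp alleles put a tamoxifen-dependent Cre and GFP under control of the Cx3cr1 locus. GFP thus reports cells that use this locus at the time of the sort. Tomato marks the descendants of cells that used it when tamoxifen was given. A GFP+/Tomato- cell is therefore read as one that began to use the locus later, although a resident cell that did not recombine has the same colours and cannot be told apart from it. The genotype tag of the labels spells the gene Cxcr1, and the reporter tag of the injIM libraries reads GFP+/Tomato+, against their titles and the stated gate; titles were followed. The libraries came from 3 mice, and which library came from which mouse is not given in the sources used here. Libraries were treated as independent, so the p-values measure the spread between these libraries.

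Skin holds several macrophage populations. Interstitial and perivascular macrophages scavenge haemoglobin, iron and debris and carry receptors such as CD163, CD206 and CD209. Nerve-associated macrophages lie along sensory axons, are marked by the fractalkine receptor CX3CR1, and share surface genes with microglia of the brain. After tissue loss, monocytes enter the wound, become macrophages and can take up positions that residents held, and transforming growth factor-β is one of the signals known to give microglia and related macrophages their identity. The series asks how nerves shape local macrophages.

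The 6 libraries held 20.4 to 23.4 M recovered reads each, with no visible depth gap between the groups. Genes with at least 1 read numbered 15080, 13794 and 14145 in recsNAM libraries and 16057, 16105 and 16416 in injIM libraries, so every recsNAM library showed fewer. Replicates correlated at 0.934 to 0.955 in recsNAM and at 0.966 to 0.983 in injIM (Pearson r across genes, on a log2 scale), so the recsNAM libraries were the more variable. No pair of libraries was close enough to be a repeat. Values below are the authors' normalized counts, which are not divided by gene length, so levels are compared between libraries and not between genes. In bulk RNA, fewer cells of a type and less RNA per cell cannot be told apart.

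The gate genes were looked at first. Cx3cr1, whose reporter defined the sort, stood at 173, 96.7 and 160 normalized counts in recsNAM libraries, against 0.821, 7.28 and 23.5 in injIM libraries. The direction follows the GFP gate and is a check of the labels and not a result, and Cx3cr1 lay below the filter on low values. The injsNAM libraries of the GFP+/Tomato+ gate had 66.9, 0 and 0, which overlapped injIM, so Cx3cr1 cannot tell apart the gate in the titles of the injIM libraries and the one in their reporter tag. Itgam, which encodes CD11b, had 9463, 12577 and 6410 in recsNAM and 8791, 9802 and 5864 in injIM (adjusted p = 0.723). Fcgr1, which encodes CD64, had 2298, 1520 and 3024 in recsNAM and 1499, 1052 and 1884 in injIM (adjusted p = 0.225). Summed over 10 pan-macrophage markers, recsNAM libraries reached 22393 to 26512 CPM (recovered reads scaled so that each library sums to 1 M) and injIM libraries 21253 to 24061 (exact permutation test, two-sided p = 0.2, where 0.1 is the smallest p that 3 against 3 libraries can give).

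Across all 8656 genes tested, 652 passed an adjusted p of 0.05 (limma on log2 of the value plus 100, Benjamini-Hochberg), which is 7.53%. Of these, 276 were higher in recsNAM (3.19%) and 376 were lower (4.34%). These shares are the background for all list counts below. The 3 recsNAM values lay wholly above or below the 3 injIM values in 2069 genes (23.9%), and in 631 of the 652 called genes. The count depended on how the spread was modelled. Giving each group its own weight, as here, gave 652 calls, while equal weights gave 22 and edgeR on all 15 libraries gave 10. With only the 6 libraries of the comparison, limma gave 478 calls and edgeR 295. Leaving out recsNAM replicate 1 left 272 calls and leaving out injIM replicate 1 left 357. None of the 652 genes changed direction under any of these alternatives. This is no separate support for direction, because the alternatives reuse the same libraries and most called genes did not overlap. Equal weights also leave the group means as they were. The genes described in most detail below kept their call when any 1 of the 6 libraries was left out, as 80 of the 125 named genes that were called did.

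**Figure D1:**
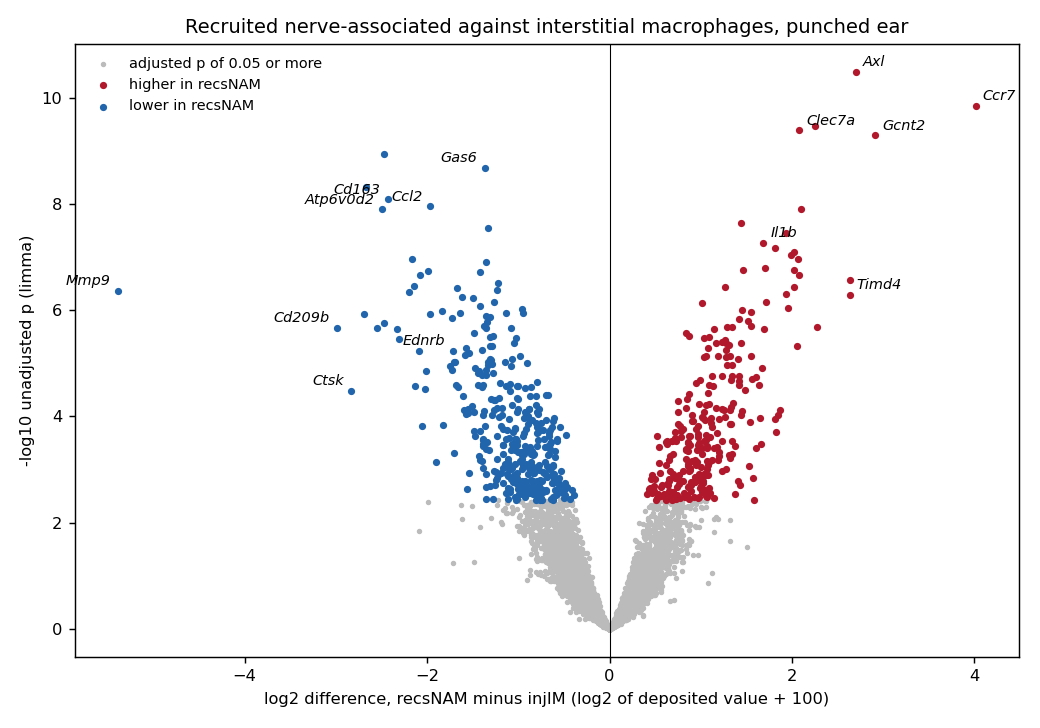
Each point is 1 of 8656 genes, with the log2 difference (recsNAM minus injIM) on the x axis and −log10 of the unadjusted limma p on the y axis. Red points are the 276 genes higher in recsNAM, blue points the 376 genes lower in recsNAM, and grey points were not called; Ccr7 and Axl stand far right and Mmp9 far left.

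Ccr7 had the widest positive difference of all 8656 tested genes. This receptor, which guides migrating immune cells along CCL19 and CCL21 (gene at chr11:99144199-99155077), had 6529, 2940 and 5339 normalized counts in recsNAM, against 313, 80.9 and 248 in injIM. The lowest recsNAM library was thus above the highest injIM library by a wide margin. The mean was 23.1-fold higher, and the log2 difference was 4.01 ± 0.32 (SE; limma adjusted p = 6.09e-07). Ccr7 was called under all 18 alternatives. The injsNAM libraries had 11463, 5110 and 4440 and the IM libraries 591, 285 and 481, so both nerve-associated groups of the punched ear were high for it.

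Axl, a receptor tyrosine kinase that binds GAS6 on dying cells (chr7:25756500-25788924), had 7761, 7655 and 6182 in recsNAM, against 957, 1134 and 967 in injIM. It was 7.06-fold higher by the means (adjusted p = 2.81e-07) and was also called under all 18 alternatives. Timd4, a receptor for phosphatidylserine, had 1234, 671 and 582 in recsNAM and 57.5, 86.6 and 0 in injIM (log2 difference 2.63 ± 0.35, adjusted p = 0.000111). With only the 6 libraries of the comparison, neither edgeR (adjusted p = 0.0837) nor DESeq2 (adjusted p = 0.113) called Timd4. Clec7a, the β-glucan receptor Dectin-1, had 6100, 4211 and 5536 in recsNAM and 1124, 1229 and 1137 in injIM (log2 difference 2.08 ± 0.18, adjusted p = 8.81e-07). For all 3 genes recsNAM and injIM did not overlap. The injsNAM libraries had 9099, 8564 and 4598 for Axl, 3991, 1646 and 647 for Timd4, and 3216, 5187 and 4909 for Clec7a. These ranges overlapped those of recsNAM.

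Further genes in this set of large positive differences covered glycan synthesis, protease control and cytokine signalling. Gcnt2, an enzyme that branches I-antigen glycans, had 1697, 1409 and 1728 in recsNAM and 134, 172 and 82.0 in injIM (adjusted p = 8.81e-07). Spint1, an inhibitor of serine proteases, had 1250, 1811 and 619 in recsNAM and 88.7, 168 and 50.9 in injIM (adjusted p = 7.89e-05). Cytip, a cytohesin-binding protein of leukocytes, had 13883, 12861 and 14753 in recsNAM and 3170, 2598 and 3784 in injIM (adjusted p = 9.12e-06). None of these ranges overlapped. Bcl2a1b, an inhibitor of cell death, had 1827, 1723 and 2100 in recsNAM and 352, 320 and 276 in injIM (adjusted p = 8.81e-07, called under all 18 alternatives). It has near-identical copies in the mouse, so its reads may have been split between them. The injsNAM libraries had 2423, 2638 and 2566 for Bcl2a1b, all above the recsNAM values. Il21r, the interleukin-21 receptor, had a log2 difference of 2.08 ± 0.26, and Stat4, a transcription factor of cytokine signalling, one of 2.06 ± 0.32. Vdr, the vitamin D receptor, had 1829, 1721 and 2064 in recsNAM, against 388, 420 and 348 in injIM (adjusted p = 5.95e-05). Here the resident injsNAM libraries, with 197, 457 and 844, lay below all recsNAM libraries, but the difference between recsNAM and injsNAM did not pass the threshold (log2 difference 1.87 ± 0.52, adjusted p = 0.257).

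A ligand and a decoy receptor of interleukin-1 were both higher in recsNAM. Il1b, the inflammatory cytokine, had 62958, 53017 and 70328 in recsNAM, against 19745, 17374 and 20335 in injIM. Every recsNAM library was above every injIM library, 3.24-fold by the means (log2 difference 1.69 ± 0.19, adjusted p = 2.91e-05), under all 18 alternatives. The injsNAM libraries, with 59825, 72912 and 51830, overlapped recsNAM. In the same fit the IM libraries of unpunched ears, with 42814, 67824 and 36842, were also above injIM (injIM minus IM −1.31 ± 0.16, adjusted p = 2.72e-05; in that contrast 8.18% of genes were called, 4.15% higher and 4.03% lower in injIM). Il1r2, which binds interleukin-1 without signalling, had 1860, 1049 and 1037 in recsNAM and 84.6, 212 and 295 in injIM (log2 difference 2.27 ± 0.34, adjusted p = 0.00026). Of 21 tested genes of inflammatory cytokines and their receptors, these 2 were higher and 1 was lower. The lower one was Il10, an anti-inflammatory cytokine, with 1250, 1144 and 1796 in recsNAM and 3427, 2142 and 3314 in injIM (adjusted p = 0.00767, and 0.0944 without recsNAM replicate 1 or 0.0515 without injIM replicate 1). Il6 had 283, 504 and 274 in recsNAM and 387, 310 and 342 in injIM (adjusted p = 0.994). Tnf was listed at 0 in all 15 libraries and could not be compared.

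**Figure D2:**
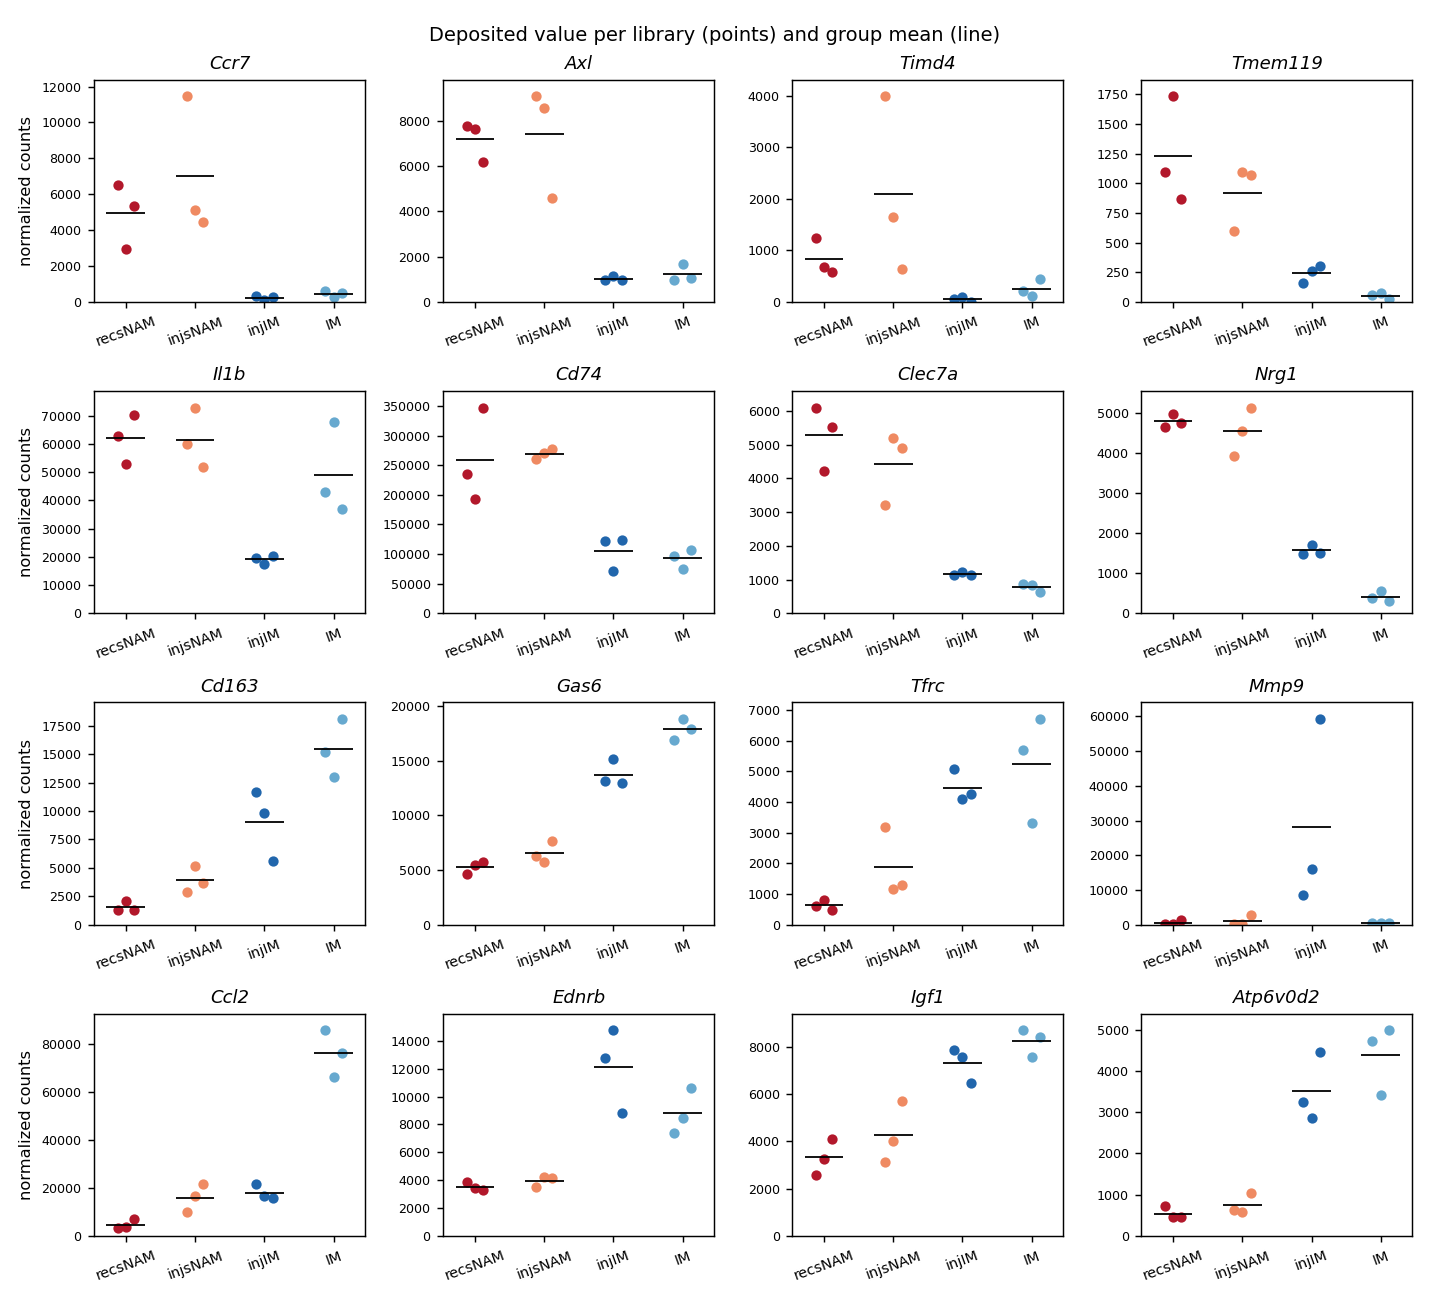
Normalized counts (y axis, from 0) of 16 genes in each library, with points for the 3 libraries and a line for the mean of recsNAM, injsNAM, injIM and IM. The 3 recsNAM points of Ccr7 lie between 2940 and 6529 and those of injIM between 80.9 and 313; for Tfrc and Atp6v0d2 every recsNAM point is below every injIM point.

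Genes that nerve-associated macrophages share with microglia moved in both directions. Of 24 listed genes, 21 were tested, 5 were higher and 4 were lower, with a median log2 difference of 0.00 against −0.02 over all genes tested. The balance turned on single libraries: 2 were lower without recsNAM replicate 1 or injIM replicate 1 and 7 without injIM replicate 3, while 3 to 5 were higher. Tmem119, a microglial surface protein of largely unknown function, had 1096, 1734 and 866 in recsNAM and 159, 264 and 298 in injIM (log2 difference 1.94 ± 0.26, adjusted p = 0.000109). Fcrls, an Fc receptor-like scavenger receptor, had 6072, 4588 and 8278 in recsNAM and 2562, 1505 and 3290 in injIM (adjusted p = 0.0026). Lpcat2, which remodels membrane phospholipids, had 5635, 4623 and 5200 in recsNAM and 2004, 1646 and 1774 in injIM (adjusted p = 5.95e-05). All 3 were without overlap. Olfml3, a secreted olfactomedin-like protein, was also higher (adjusted p = 0.00669). Its call ended without injIM replicate 1 (adjusted p = 0.0521), and without recsNAM replicate 2 the gene fell below the filter. Its symbol is listed more than once in the deposited table, so reads may have been split between entries.

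On the other side, Pmp22, a myelin and membrane protein, had 14534, 15225 and 20476 in recsNAM and 50266, 40478 and 37700 in injIM (log2 difference −1.36 ± 0.17, adjusted p = 4.84e-05). Cd81, a tetraspanin, had 1208, 1203 and 1504 in recsNAM and 3219, 2684 and 1945 in injIM (adjusted p = 0.00154). P2ry12, the ADP receptor that microglia use to sense damage, had 550, 700 and 481 in recsNAM and 1372, 1105 and 771 in injIM (adjusted p = 0.0366). Mef2a, a transcription factor, was lower with an adjusted p of 0.02. Both calls ended without recsNAM replicate 1 or 3 or injIM replicate 1 or 2, at 0.0912 to 0.22 for P2ry12 and 0.0504 to 0.0983 for Mef2a. Sall1, the factor that marks brain microglia, had at most 0.78 in recsNAM and 0.759 in injIM, which is 1 read. Members of this list thus passed the test in both directions.

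The set described for perivascular and interstitial macrophages was the one with the most members lower in recsNAM. Of 28 listed genes, 25 were tested, 18 were lower and 1, Timd4, was higher, with a median log2 difference of −1.31. The list was drawn up with earlier results of these data known, so its count is not independent evidence of direction. The number lower ranged from 12 to 20 when single libraries were left out, the 12 being without recsNAM replicate 1. Cd163, the haemoglobin scavenger receptor (chr6:124304636-124330529), had 1322, 2042 and 1306 in recsNAM, against 11698, 9870 and 5595 in injIM. It was 5.82-fold lower by the means (log2 difference −2.43 ± 0.25, adjusted p = 7.79e-06), under all 18 alternatives.

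Several C-type lectins of the CD209 family, which bind mannose-rich glycans, were among the lower genes. Cd209b had 59.2, 175 and 79.9 in recsNAM and 2337, 1782 and 758 in injIM (log2 difference −2.99 ± 0.44, adjusted p = 0.00026). Cd209f had 82.5, 28.1 and 54.2 in recsNAM and 868, 652 and 533 in injIM (adjusted p = 0.000261). Cd209d was also lower (adjusted p = 0.005, and 0.0685 without recsNAM replicate 1). Cd209a, a family member counted here with the dendritic cell markers, had 1008, 1258 and 1170 in recsNAM and 3573, 2228 and 1047 in injIM, which overlapped (adjusted p = 0.365). These genes are near neighbours on chromosome 8 with similar sequences, so reads may have been split between them. Mrc1, which encodes CD206, had 15536, 13034 and 13468 in recsNAM and 30983, 28234 and 19587 in injIM (adjusted p = 0.00313). Not every member followed: Lyve1, a hyaluronan receptor, had 6.23, 71.8 and 93.1 in recsNAM and 540, 467 and 85.8 in injIM (adjusted p = 0.108), and Stab1, a scavenger receptor, had 8876, 8694 and 5611 in recsNAM and 9667, 11510 and 6347 in injIM (adjusted p = 0.679).

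Secreted products were lower too. Gas6, the ligand of AXL, had 4625, 5437 and 5735 in recsNAM, against 13124, 15166 and 12932 in injIM (log2 difference −1.37 ± 0.13, adjusted p = 2.56e-06), under all 18 alternatives. The receptor Axl and its ligand thus differed in opposite directions between the same libraries. Pros1, another ligand of this receptor family and not a member of the list, had 1841, 1642 and 1718 in recsNAM and 7740, 5627 and 3272 in injIM (adjusted p = 0.000546). Igf1, a growth factor, had 2590, 3263 and 4123 in recsNAM and 7886, 7554 and 6458 in injIM (log2 difference −1.13 ± 0.16, adjusted p = 0.000181). Selenop, the plasma selenium carrier, had 21046, 18073 and 28906 in recsNAM and 51754, 51998 and 52569 in injIM (adjusted p = 8.45e-05). Of the 29 tested genes of complement and phagocytosis, 5 were higher, among them Axl, Timd4 and Havcr2, and 5 were lower, among them Gas6, Pros1 and Cd36. The called share was 34.5%, against 7.53% of all genes tested.

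Promoter sequence was examined because many of these genes differed in the same direction. The RefSeq promoter window runs from 250 bases before to 50 bases after the start of each gene (GRCm38.p6), and 208 higher, 282 lower and 7000 tested genes had one. Both strands were searched for 4 motifs. A gene was counted if any of its windows held a match, while the share over all promoters counts single promoters. The AP-1 motif TGANTCA was found for 9.14% of higher genes, 14.9% of lower genes and 6.54% of all tested genes, and in 7.81% of 32851 promoters. The PU.1 motif GAGGAAGT was found for 9.14% of higher, 3.55% of lower and 4.17% of tested genes, and in 3.20% of all promoters. The E-box CACGTG was in 8.17%, 15.6%, 12.9% and 7.15% of these sets in the same order, and the κB motif of NF-κB in 1.92%, 1.77%, 2.13% and 1.63%. No motif holds another motif of this search within it, and no test was made of these shares. A match of letters is a description and not a binding site. Shown are the 250 bases before the start, 5′ to 3′ on the strand of the gene, of 4 genes that kept their call without any 1 library and hold an AP-1 match if lower or a PU.1 match if higher. Cd209f (chr8:4105765-4106014, minus strand) and Igf1 (chr10:87860861-87861110, plus strand) were lower, and Havcr2 (chr11:46454681-46454930, plus strand) and Cenpa (chr5:30666636-30666885, plus strand) were higher. Capitals mark AP-1 matches in Cd209f, in Igf1 and nearer the 5′ end of Havcr2, and PU.1 matches at the 3′ end of Havcr2 and in Cenpa.
Cd209f: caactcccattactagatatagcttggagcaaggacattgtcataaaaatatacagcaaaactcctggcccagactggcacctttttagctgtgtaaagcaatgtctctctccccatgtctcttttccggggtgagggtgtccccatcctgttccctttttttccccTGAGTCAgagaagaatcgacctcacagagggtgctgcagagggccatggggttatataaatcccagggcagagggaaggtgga
Igf1: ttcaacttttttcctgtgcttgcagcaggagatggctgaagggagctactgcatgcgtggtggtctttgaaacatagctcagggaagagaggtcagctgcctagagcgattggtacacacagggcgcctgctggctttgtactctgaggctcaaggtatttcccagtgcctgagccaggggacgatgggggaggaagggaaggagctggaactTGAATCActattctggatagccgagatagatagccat
Havcr2: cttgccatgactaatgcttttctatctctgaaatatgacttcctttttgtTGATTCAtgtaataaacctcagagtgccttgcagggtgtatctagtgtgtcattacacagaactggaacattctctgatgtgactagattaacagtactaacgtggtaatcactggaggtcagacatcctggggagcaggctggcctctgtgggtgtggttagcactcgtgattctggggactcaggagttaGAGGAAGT
Cenpa: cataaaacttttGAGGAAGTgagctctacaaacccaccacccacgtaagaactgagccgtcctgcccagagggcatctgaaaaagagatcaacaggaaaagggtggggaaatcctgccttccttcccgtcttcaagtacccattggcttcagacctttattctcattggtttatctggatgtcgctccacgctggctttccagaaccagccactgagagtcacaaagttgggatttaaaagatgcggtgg

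Havcr2, the phosphatidylserine receptor TIM-3, had 5241, 7822 and 5484 in recsNAM and 2389, 2828 and 2163 in injIM (log2 difference 1.28 ± 0.20, adjusted p = 0.000398). Cenpa, a centromeric histone, had 1310, 1278 and 1860 in recsNAM and 627, 444 and 844 in injIM (adjusted p = 0.00403). Cenpa and Rrm2, a ribonucleotide reductase subunit, were the 2 genes called among 30 tested genes of S and G2/M phase (Rrm2 adjusted p = 0.0456, and 0.12 to 0.277 without recsNAM replicate 1 or 2 or injIM replicate 1). The proliferation marker Mki67 had 1588, 1540 and 842 in recsNAM and 1965, 2068 and 843 in injIM (adjusted p = 0.762). A called share of 2 in 30 is near the background of 7.53%. In this list 26 tested genes had a positive and 4 a negative log2 difference (median 0.28, against −0.02 over all genes tested).

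Iron uptake and lysosomal genes were more often lower than higher in recsNAM. Of 35 tested genes of iron, haem and the lysosome, 11 were lower and 2 were higher (median log2 difference −0.28, 37.1% called against 7.53% of all genes tested). Tfrc, the transferrin receptor (chr16:32608896-32632794), had 613, 816 and 462 in recsNAM, against 5058, 4102 and 4244 in injIM (log2 difference −2.67 ± 0.26, adjusted p = 5.27e-06). Atp6v0d2, a proton pump subunit of macrophages and osteoclasts, had 717, 455 and 457 in recsNAM and 3243, 2866 and 4458 in injIM (log2 difference −2.49 ± 0.26, adjusted p = 9.12e-06). Ctsk, a collagen-degrading cathepsin, had 1537, 3239 and 1874 in recsNAM and 9471, 12482 and 32186 in injIM (adjusted p = 0.00173). Ctsl, another lysosomal protease, had 14955, 14884 and 20467 in recsNAM and 37443, 27469 and 41565 in injIM (adjusted p = 0.000652). The protease gene Ctsh was among the higher ones (adjusted p = 0.00197). The number lower fell to 6 without recsNAM replicate 1. Steap4, a metalloreductase outside this list, had no read in any recsNAM library and 545, 312 and 352 in injIM, so it was at least 176-fold lower against a floor of 3 reads per library.

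Matrix genes included the widest log2 difference of all 8656 tested genes. Mmp9, the gelatinase of migrating leukocytes and osteoclasts (chr2:164940326-164955850), had 160, 232 and 1219 in recsNAM, against 8654, 16010 and 59304 in injIM. It was 52.1-fold lower by the means (log2 difference −5.39 ± 0.65, adjusted p = 9.96e-05), although injIM replicate 3 alone held most of the injIM sum. Voom did not call Mmp9 (adjusted p = 0.135). The IM libraries of unpunched ears had 363, 423 and 402, in the range of recsNAM, and injIM was above IM in the same fit (log2 difference 5.36 ± 0.53, adjusted p = 1.02e-05). Timp3, an inhibitor of metalloproteinases, had 100, 25.7 and 103 in recsNAM and 700, 832 and 522 in injIM (adjusted p = 4.44e-05). Timp2 had 16445, 19610 and 14451 in recsNAM and 33815, 33088 and 30213 in injIM (adjusted p = 0.000181). Of 25 tested matrix remodelling genes (32% called, against 7.53% of all genes tested), 6 were lower and 2 were higher. The higher ones were the membrane-type metalloproteinase Mmp25 (log2 difference 1.87 ± 0.37) and the transglutaminase Tgm2 (1.01 ± 0.21).

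Fbln5, Col8a1 and Fmod, which encode structural matrix proteins of connective tissue, were lower in recsNAM. Fbln5, an elastic fibre protein, had 7.01, 46.8 and 0 in recsNAM and 534, 490 and 610 in injIM (adjusted p = 1.63e-06). Col8a1 had 3.11, 0 and 36.6 in recsNAM and 293, 320 and 726 in injIM, and Fmod 0, 0 and 196 in recsNAM and 403, 412 and 870 in injIM. With only the 6 libraries edgeR called none of these 3 genes (adjusted p = 0.0545 for Fbln5, 0.0719 for Col8a1 and 0.428 for Fmod), and DESeq2 did not call Fmod (adjusted p = 0.687). Summed over 15 cartilage genes, a list added after the values were seen, recsNAM libraries had 4.15, 10.3 and 26.7 CPM and injIM libraries 88.5, 103 and 207. Only 4 of these 15 genes passed the filter on mean value, which at such low recsNAM sums favours genes that are high in other groups. That all 4 were lower is therefore not independent evidence. Without recsNAM replicate 1 the calls of Comp and Cytl1 ended (adjusted p = 0.137 and 0.158), and without recsNAM replicate 2 that of Cytl1 (0.0812). Of the listed genes, 5, among them Col9a1 and Hapln1, had no read in any recsNAM library. Summed over 8 fibroblast markers, recsNAM libraries had 59.5, 304 and 280 CPM and injIM libraries 419, 295 and 1102 (exact permutation p = 0.2). Of the 7 tested fibroblast markers 1 was lower, Dcn (adjusted p = 0.0219), whose call ended without recsNAM replicate 1 or 3 or injIM replicate 2 (0.0654 to 0.275). Col3a1, a fibrillar collagen of the same list, had 44.4, 1118 and 1874 in recsNAM and 2526, 724 and 5573 in injIM, which overlapped (adjusted p = 0.283). The part of these cells' RNA in the matrix differences was not tested.

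**Figure D3:**
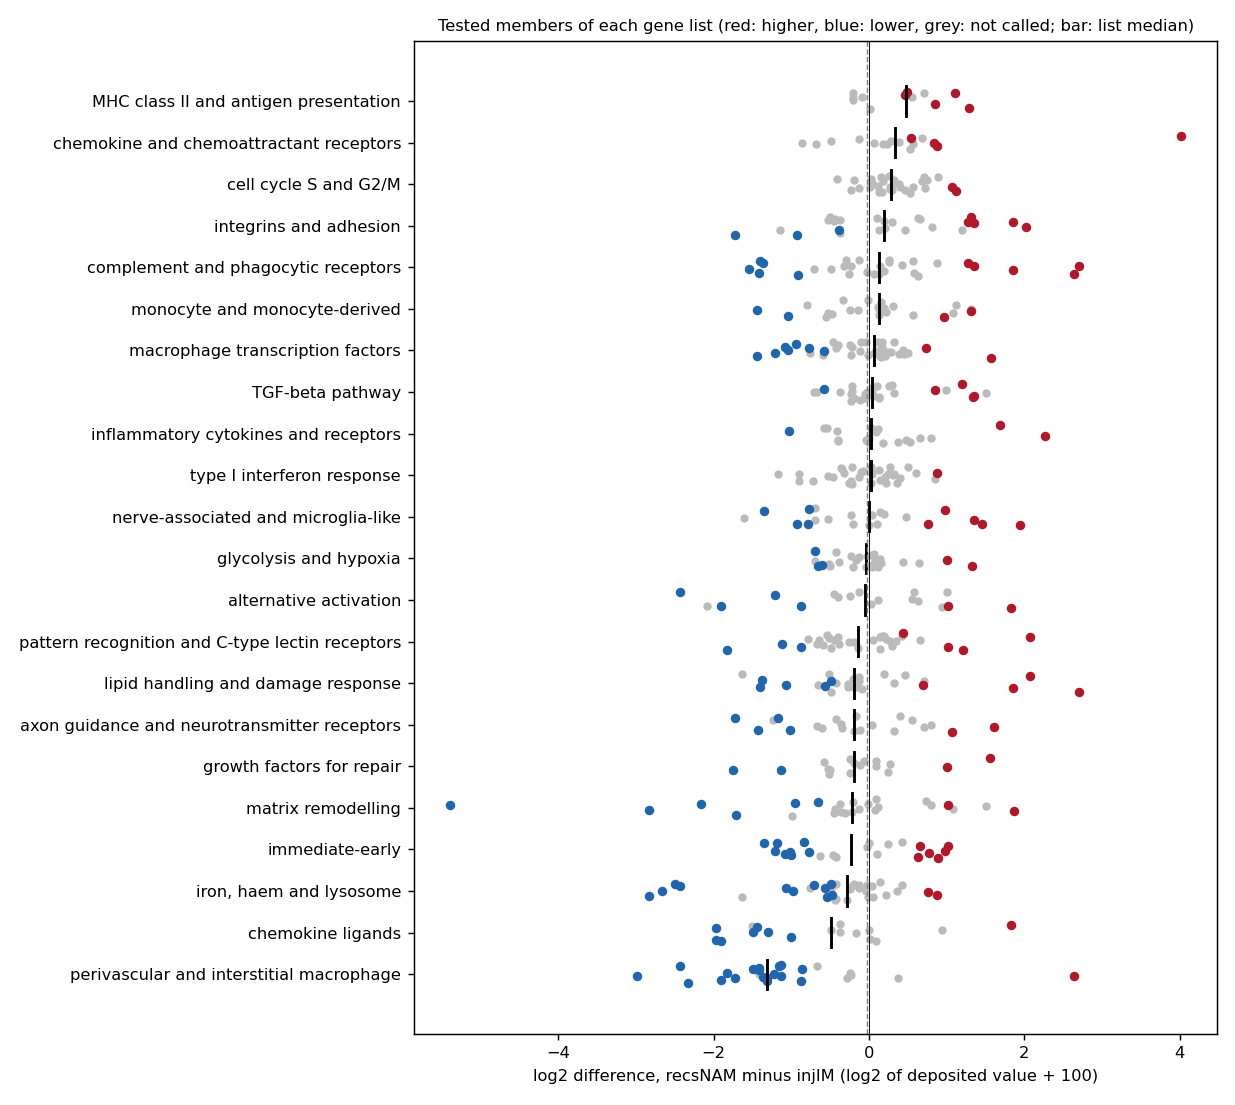
Each row is 1 of 22 gene lists and each point 1 tested member, placed by its log2 difference (x axis, recsNAM minus injIM). Red and blue points passed an adjusted p of 0.05, black bars are list medians and the dashed line is the median of all genes; the perivascular and interstitial list lies furthest to the left, with a median of −1.31.

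Called chemokine ligands were mostly lower in recsNAM, and called chemoattractant receptors were higher. Of 17 tested chemokine ligands, 7 were lower and 1 was higher (47.1% called, against 7.53% of all genes tested). The median log2 difference was −0.49, and 5 to 8 were lower when single libraries were left out. Ccl2, the main monocyte attractant (chr11:82035577-82037452), had 3230, 3922 and 7010 in recsNAM, against 21596, 16647 and 15758 in injIM (log2 difference −1.97 ± 0.21, adjusted p = 9.12e-06). Ccl7, its neighbour with the same receptor, had 5355, 5670 and 10158 in recsNAM and 20079, 19054 and 18732 in injIM (adjusted p = 0.00012). Ccl8 had 5198, 5996 and 10228 in recsNAM and 29004, 20767 and 32456 in injIM (adjusted p = 0.000181). In IM libraries Ccl2 stood at 85744, 66142 and 76319, above both groups of the punched ear. Ccl22, a ligand of CCR4, was the 1 higher ligand, with 588, 378 and 276 in recsNAM and 38.6, 17.0 and 69.1 in injIM (adjusted p = 0.00623, and 0.111 without recsNAM replicate 1). Cxcl2, a neutrophil attractant, had 21762, 18924 and 28146 in recsNAM and 27728, 19841 and 29618 in injIM (adjusted p = 0.681).

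Of 16 tested chemoattractant receptors, 4 were higher and none was lower (25% called, against 7.53% of all genes tested). Beside Ccr7 these included Ccr1 and S1pr1, whose calls depended on which libraries were kept. Ccr1, a receptor of inflammatory chemokines, had 7308, 6674 and 7206 in recsNAM and 4785, 4590 and 5108 in injIM (adjusted p = 0.0165, and 0.0568 to 0.154 without recsNAM replicate 1 or injIM replicate 1 or 2). S1pr1, a sphingosine phosphate receptor, had one of 0.0326, and 0.0593 to 0.106 without any library but injIM replicate 3. The monocyte receptor Ccr2 had 676, 1620 and 1118 in recsNAM and 827, 456 and 873 in injIM (adjusted p = 0.52). Among 23 tested genes of monocytes and their early progeny, 2 were higher and 2 were lower (17.4%, against 7.53% of all genes tested). The higher ones were Napsa, an aspartic protease (adjusted p = 0.0091, and 0.0982 or 0.0596 without recsNAM replicate 1 or injIM replicate 1), and the integrin subunit Itgal (0.0122, and 0.0542 to 0.181 without recsNAM replicate 1 or 2 or injIM replicate 1). Those lower were S100a6 (log2 difference −1.04 ± 0.16) and the transcription factor Klf2 (−1.44 ± 0.26), both called whichever library was left out. Ly6c2, the classical monocyte marker, had 42.8, 41.3 and 227 in recsNAM and 118, 42.9 and 328 in injIM (adjusted p = 0.872).

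Antigen presentation genes that could be measured were higher or not called. Cd74, whose product chaperones class II molecules, had 235364, 193574 and 347370 in recsNAM, against 122403, 71887 and 122882 in injIM (log2 difference 1.29 ± 0.22, adjusted p = 0.000776). Of 13 tested genes of this list, 5 were higher and none was lower (38.5% called, against 7.53% of all genes tested). Those higher were Cd74, Ciita, Cd80, Cd86 and Cd83. Ciita is outside the naming rule and was chosen after its values were seen. Without recsNAM replicate 1, Cd74 was the 1 call left. Cd80 had an adjusted p of 0.0073, and 0.0951 without recsNAM replicate 1. Cd83 had one of 0.0411, and 0.0561 to 0.232 without recsNAM replicate 1 or 3 or injIM replicate 2 or 3. Cd86 had 8499, 8367 and 7940 in recsNAM and 6085, 5774 and 5663 in injIM (adjusted p = 0.0267, and 0.0642 to 0.196 without recsNAM replicate 1 or 2 or injIM replicate 1 or 2). Both H2-Aa and H2-Eb1 stood at 0 in all 6 libraries, so chains of the peptide-binding molecule could not be compared.

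Markers of dendritic cells were higher in recsNAM as a sum, but not without Ccr7. Their sum over 14 genes was 575, 383 and 453 CPM in recsNAM and 271, 187 and 111 in injIM (exact permutation p = 0.1, the smallest this design can give). Ccr7 made up 63.4% of the sum in recsNAM and 6.70% in injIM. Without Ccr7 the sums ran from 142 to 198 in recsNAM and from 96.1 to 253 in injIM, so they overlapped. Of 10 tested markers, 3 were higher: Ccr7, Ccl22 and Flt3, the last a growth factor receptor of dendritic cell precursors with 329, 474 and 157 in recsNAM and 29.6, 85.0 and 19.0 in injIM (adjusted p = 0.00166). None was called lower in the main fit, although 3 of the 10 had a negative log2 difference. Cd209a was called lower without injIM replicate 3 (adjusted p = 0.0256). The part of dendritic cells in the differences of Ccr7, Cd74 and Il1b was not tested. Il7r, the interleukin-7 receptor, had 7640, 7859 and 6108 in recsNAM and 3906, 3640 and 2840 in injIM (log2 difference 1.04 ± 0.17, adjusted p = 0.000615). It made up 97.9% of the summed T and NK cell markers in both groups; the rest of that sum was 3.91 to 13.3 CPM in recsNAM and 2.89 to 5.54 in injIM, with Trac, Ncr1 and Cd2 at 0 in all 6 libraries.

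**Figure D4:**
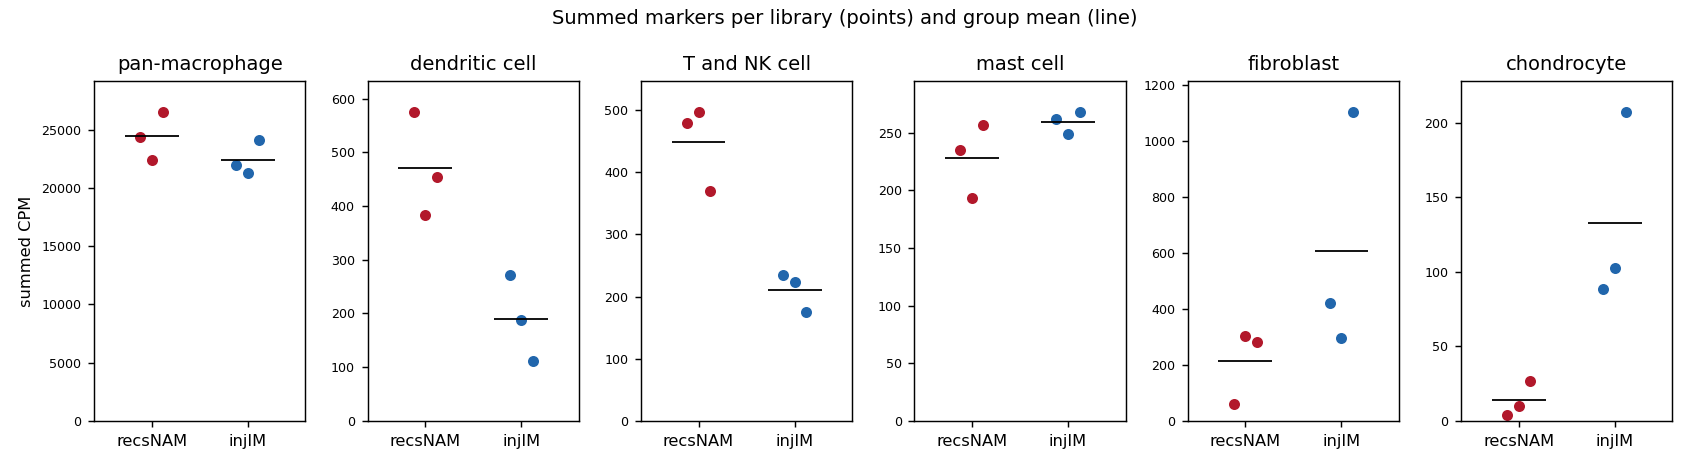
Summed CPM (y axis, from 0) of 6 marker lists in each library, with the 3 recsNAM libraries left and the 3 injIM libraries right and a line at the mean. Pan-macrophage sums lie in similar ranges, dendritic cell sums are 383 to 575 in recsNAM and 111 to 271 in injIM, and cartilage gene sums are 4.15 to 26.7 in recsNAM and 88.5 to 207 in injIM.

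Mast cell markers summed to 193 to 256 CPM in recsNAM and 249 to 268 in injIM, and neutrophil markers to 94.9 to 149 in recsNAM and 83.6 to 117 in injIM. Csf3r made up 94.7% of the neutrophil sum in recsNAM and 92.5% in injIM. Without Csf3r that sum was 3.67 to 11.2 CPM in recsNAM and 6.17 to 9.46 in injIM. Langerhans cell markers averaged 57.1 ± 10.8 in recsNAM and 41.4 ± 6.96 in injIM (SD, n = 3 each), with none of 3 tested members called. Their sums did not overlap, at 49.96 to 69.53 in recsNAM and 34.71 to 48.61 in injIM. The exact permutation p was 0.1, the smallest this design can give. Without Cd24a, the top gene, the sums were 40.06 to 48.26 in recsNAM and 15.59 to 23.8 in injIM. The part of Langerhans cells in the differences between the groups was not tested. B cell, endothelial, keratinocyte, Schwann cell and melanocyte, and erythrocyte and platelet lists each stayed below 40 CPM in all 6 libraries. The B cell list and the erythrocyte and platelet list had no member above the filter, so they could give no call. None of the 5 members tested in the other lists was called, 3 of them keratinocyte genes.

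Genes tied to TGF-β were mostly not called. Of 29 tested genes of this pathway, 4 were higher and 1 was lower (17.2%, against 7.53% of all genes tested), with a median log2 difference of 0.04. When single libraries were left out, 2 to 5 were higher and 0 to 2 were lower. Itgb5, an integrin subunit that takes part in TGF-β activation, had 7703, 7470 and 4749 in recsNAM and 2217, 2885 and 2419 in injIM (log2 difference 1.35 ± 0.20, adjusted p = 0.00026). Pmepa1, a target gene that dampens the pathway, had 3911, 4748 and 4964 in recsNAM and 1679, 1957 and 2162 in injIM (adjusted p = 0.000596). The ligand gene Tgfb3 (adjusted p = 0.012, and 0.07 or 0.0901 without recsNAM replicate 1 or injIM replicate 1) and the target Id3 (0.0166, and 0.0966 to 0.121 without recsNAM replicate 1 or 2 or injIM replicate 1) were also higher. The ligand Tgfb1 had 4957, 3925 and 5554 in recsNAM and 5614, 5514 and 5309 in injIM (adjusted p = 0.593). The receptor genes Tgfbr1 and Tgfbr2 had adjusted p of 0.973 and 0.0572. Thbs1, which activates latent TGF-β, had 247666, 288822 and 210608 in recsNAM and 87424, 94972 and 79641 in injIM, without overlap, but did not pass the threshold (2.85-fold by the means, adjusted p = 0.186) and was called under 5 of 18 alternatives. These were limma (adjusted p = 0.00152), edgeR (0.00563) and DESeq2 (1.48e-18) on only the 6 libraries, voom (0.00239) and the replicate block (0.0366).

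Genes for signals to and from nerves and for repair were split. Nrg1, a growth factor for Schwann cells, had 4669, 4988 and 4757 in recsNAM, against 1485, 1716 and 1510 in injIM (log2 difference 1.56 ± 0.22, adjusted p = 0.000181). Its values in injsNAM, 3930, 4564 and 5145, overlapped those of recsNAM, and IM had 380, 544 and 302. Ramp3, outside the lists counted here and a partner of the receptors for calcitonin-family peptides, had 1968, 1948 and 3190 in recsNAM and 498, 296 and 698 in injIM (adjusted p = 4.44e-05). Htr7, a serotonin receptor, had 344, 452 and 375 in recsNAM and 37.0, 58.3 and 88.8 in injIM (adjusted p = 0.00111). Ednrb, the endothelin B receptor, had 3882, 3427 and 3289 in recsNAM and 12746, 14764 and 8829 in injIM (log2 difference −1.72 ± 0.28, adjusted p = 0.000509). Hbegf, a growth factor of the epidermal family, had 407, 570 and 1645 in recsNAM and 2519, 2549 and 3133 in injIM (adjusted p = 0.000798). With only the 6 libraries edgeR did not call Hbegf (adjusted p = 0.152). Vegfa was higher (17181, 17687 and 19075 in recsNAM, 7445, 8989 and 10527 in injIM, adjusted p = 0.0334), a call that held only without injIM replicate 3 and otherwise gave 0.0555 to 0.172. Of 21 tested genes for axon guidance and neurotransmitter receptors, 2 were higher and 4 were lower (28.6% called, against 7.53% of all genes tested). Without recsNAM replicate 1 or injIM replicate 1 these counts were 1 and 2, and without injIM replicate 3 they were 3 and 6. Of 17 tested growth factors, 2 were higher and 2 were lower (23.5% called).

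Immediate-early genes, which are induced by stress and by tissue digestion, differed in both directions. Of 22 tested, 6 were higher and 8 were lower, a called share well above the 7.53% of all genes. Jun, a subunit of AP-1, had 3941, 4403 and 3946 in recsNAM and 8151, 10016 and 8209 in injIM (log2 difference −1.08 ± 0.16, adjusted p = 0.00026). Egr1 had 1042, 1106 and 1909 in recsNAM and 3767, 3006 and 3715 in injIM (adjusted p = 0.000914), and Atf3 was lower as well (adjusted p = 0.00313). Nr4a2, a nuclear receptor, had 3477, 4409 and 4786 in recsNAM and 2274, 2392 and 2544 in injIM (adjusted p = 0.00524), and Dusp2, a phosphatase of MAP kinases, was higher with the same adjusted p. The list was less stable than these genes, with 2 higher and 3 lower without recsNAM replicate 1, and 3 and 5 without injIM replicate 1.

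Among 39 tested transcription factors of macrophages, 2 were higher and 7 were lower, but 1 was lower without recsNAM replicate 1, 2 without injIM replicate 1 and 4 without recsNAM replicate 2 or injIM replicate 2. Runx2, known from bone and from plasmacytoid dendritic cells, had 514, 439 and 355 in recsNAM and 111, 57.5 and 75.2 in injIM (log2 difference 1.56 ± 0.28, adjusted p = 0.00123). Klf2, which restrains macrophage activation, had 254, 156 and 333 in recsNAM and 719, 828 and 940 in injIM (adjusted p = 0.00145). The lineage factors Spi1, which encodes PU.1, with 11366, 9399 and 14390 in recsNAM and 10957, 10288 and 11810 in injIM (adjusted p = 0.86), and Cebpb (adjusted p = 0.602) were not called.

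Lipid handling genes were also mixed, with 4 of 28 tested higher and 5 lower (3 lower without recsNAM replicate 1 or 2 or injIM replicate 1). Itgax, which encodes CD11c, had 1606, 2201 and 1125 in recsNAM and 366, 439 and 308 in injIM (log2 difference 1.85 ± 0.37, adjusted p = 0.0037). Apoe, the lipid carrier, had 322137, 240307 and 401419 in recsNAM and 176090, 171331 and 239738 in injIM (adjusted p = 0.012, and 0.0517 to 0.104 without recsNAM replicate 1 or 3 or injIM replicate 1). Gpnmb, a glycoprotein of lysosome-rich macrophages, had 9343, 8147 and 6371 in recsNAM and 19708, 27451 and 15979 in injIM (log2 difference −1.37 ± 0.27, adjusted p = 0.0033). Cd36, a fatty acid and scavenger receptor, had 5368, 10457 and 4878 in recsNAM and 16466, 23699 and 13188 in injIM (adjusted p = 0.00108).

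In pattern recognition, Cd14, the lipopolysaccharide co-receptor, had 175166, 172446 and 240095 in recsNAM and 94631, 85246 and 108464 in injIM (log2 difference 1.02 ± 0.14, adjusted p = 0.000141). Of 31 tested genes of this list, 4 were higher, Cd14 and Clec7a among them, and 3 were lower; without recsNAM replicate 1 these were 2 and 1. Of 35 tested genes of the type I interferon response, 1 was higher and none was lower, and none was higher without recsNAM replicate 1 or 2. Of 26 tested genes of glycolysis and hypoxia, 2 were higher and 3 were lower, but without recsNAM replicate 1 none was higher and 1 was lower, and without injIM replicate 1 these were 1 and 0. Of 18 genes of alternative activation, 2 were higher and 4 were lower, Cd163 and Mrc1 among the lower ones, with 1 and 2 without recsNAM replicate 1 and 4 and 6 without injIM replicate 3. Of 25 integrins and adhesion genes, 5 were higher, among them the integrin subunit Itga9 (log2 difference 1.28 ± 0.21) and the junction protein F11r (2.03 ± 0.27), and 3 were lower (6 lower without injIM replicate 3). The background for these counts is the 7.53% called over all genes. Some genes stand in several lists, so these counts overlap.

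The recruited libraries were finally set beside the resident nerve-associated libraries of the same ears. No gene passed the threshold between recsNAM and injsNAM in limma (0%, 619 genes at an unadjusted p under 0.05) or in edgeR (1789 at an unadjusted p under 0.05), while DESeq2 on the 15 libraries called 1037 (2129 at an unadjusted p under 0.05). The injsNAM libraries had a group weight of 0.311, against 1.67 in recsNAM and 3.21 in injIM, so this comparison was less precise than the main one, and a missing call does not show that the populations were alike. Among the chemokines above, Ccl7 had 11944, 26938 and 38174 in injsNAM, all above the 3 recsNAM values (log2 difference recsNAM minus injsNAM −1.76 ± 0.42, adjusted p = 0.215).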

How the data were processed

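RNA was amplified from 250 pg per library with SMARTer v4 (13 PCR cycles, no molecular identifiers) and made into Nextera XT libraries, per the labels' protocols. The submitters' processing notes name bcl2fastq 2.18, cutadapt, STAR 2.7.2b, DESeq2 1.24.0, R 3.6.1 and the build mm10; no source used here gives the read counter, the annotation or the strand setting. The deposited table holds a normalized signal, which is the authors' read count per gene divided by 1 factor per library: all values (100%) came out as whole reads to within 0.01 read. It has 42454 entries, 18768 of them without a read in any library; 36134 matched a RefSeq symbol, and gene coordinates are RefSeq's on GRCm38.p6.

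The main test was limma 3.58.1 (R 4.3.3) on log2(value + 100), so fold changes of low genes are understated, with 1 mean and 1 weight per group over all 15 libraries, for the 8656 genes with a mean of at least 100, and a call at an adjusted p under 0.05. Equal weights, a pseudocount of 10, no filter, TMM scaling, fewer libraries, edgeR 4.0.16, DESeq2 1.42.0, voom and a replicate block were the alternatives, with count tools run on recovered reads. Named genes were the 15 largest differences in each direction without overlap, up to 4 called members per list and direction, the 2 most abundant uncalled members, and gate genes; other list members were named after their values were seen. The gene members, lists and tests were chosen with earlier results of these data known. Equal replicate numbers were not taken to pair libraries. Values of some called list members are not reported here.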

Additional observations from a re-analysis of the deposited data

How the results depend on the processing

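The count of called genes (652, with 276 higher and 376 lower) changed with the model. It was 362 (149 and 213) without a filter on low values, 22 (11 and 11) with equal weights, 10 (7 and 3) with edgeR on 15 libraries, 295 (136 and 159) with edgeR on 6 libraries, 228 (68 and 160) with DESeq2 on 15 libraries and 1093 (464 and 629) with DESeq2 on 6 libraries. DESeq2 on 15 libraries made 104 of the 652 calls, and its share of higher calls was 29.8% against 42.3%; for edgeR on 15 libraries it was 70%. With the replicate block it was 1211 (504 and 707), which holds all 652 genes. The deviations of libraries with the same number correlated at 0.0926, 0.388 and 0.370. Between differing numbers, recsNAM 1 and injIM 2 had 0.106, and the rest ran from −0.447 to 0.00937. Thus recsNAM 2 and 3 correlated best with their own number, and recsNAM 1 with injIM 2. With 1 same-number pair below 0.1 the numbers were not taken as pairs, which does not exclude that they are. Which libraries share a mouse is not given in the sources used here. Leaving out single libraries gave 272 to 899 calls, 113 to 353 higher and 159 to 546 lower. Without the sNAM and injsNAM libraries, an alternative chosen after seeing the data, 495 genes were called, and without these and IM 478. Voom gave 848, a pseudocount of 10 gave 639 and TMM scaling 653. The cause of these changes was not tested. No gene among the 652 changed sign under any setting, but the settings reuse the same libraries, so this is no separate support for direction. Depth was similar in the 6 libraries, and 3 libraries per group limit the precision.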
